A study of Mus musculus with 6 samples.

Results

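The miRNAs described here are 10 mature miRNAs that are best known from the choroid plexus and from ciliated epithelium: mmu-miR-204-5p, mmu-miR-204-3p and mmu-miR-211-5p of the miR-204 and miR-211 family, and mmu-miR-34a-5p, mmu-miR-34b-5p, mmu-miR-34b-3p, mmu-miR-34c-5p, mmu-miR-34c-3p, mmu-miR-449a-5p and mmu-miR-449c-5p of the miR-34 and miR-449 family. They were chosen by name from the 1926 miRNA rows of the deposited table, and each matched 1 row that is not merged with another miRNA. Small RNA had been sequenced from extracellular vesicles (EVs), membrane particles released by cells, that were recovered from mouse brain. SE-BDEV are 3 libraries of such EVs taken from animals that had experienced status epilepticus, a seizure that does not stop by itself, and CON-BDEV are 3 libraries from matched control mice. All 6 libraries are labelled day 10, and the event from which the day is counted, the strain and age of the mice, the agent that brought on the seizures and any pooling of brains were not stated in the labels. Separate animals behind the libraries are not named in the labels, and p-values therefore measure a spread between libraries that may be technical. Values are RPM, a miRNA's reads scaled to a common total of listed miRNA reads per library.

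miRNAs act by pairing with target messages through their seed, the bases near the 5′ end, and a hairpin precursor can give a mature miRNA from each of its arms, 5p and 3p. The choroid plexus is the epithelium in the brain ventricles that secretes cerebrospinal fluid, and miR-204 is one of its most abundant miRNAs, as it is in the pigment epithelium of the eye. miR-211 is a close copy best known from pigment cells. Ependymal cells line the ventricles and carry motile cilia. miR-34b, miR-34c and the miR-449 miRNAs are needed together for the formation of motile cilia in mice, where they act on the centriole-capping protein Cp110. miR-34a, with the same seed, is found in many cell types and is a direct transcriptional target of the stress sensor p53. In bulk vesicle RNA, a change in the number of vesicles from a cell type and a change in the miRNA content of each vesicle cannot be told apart.

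The sequences are shown because seed sharing defines the families and because near-identical members can exchange reads. RefSeq (GRCm38.p6) held mature entries for 9 of the 10 members, and no entry was matched for miR-34c-5p. Capitals mark the seed, bases 2 to 8 from the 5′ end.
mmu-miR-34a-5p: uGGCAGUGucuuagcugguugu
mmu-miR-34b-5p: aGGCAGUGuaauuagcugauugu
mmu-miR-449a-5p: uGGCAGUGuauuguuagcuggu
mmu-miR-449c-5p: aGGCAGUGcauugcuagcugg
mmu-miR-34b-3p: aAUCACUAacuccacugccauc
mmu-miR-34c-3p: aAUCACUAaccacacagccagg
mmu-miR-204-5p: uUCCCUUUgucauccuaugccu
mmu-miR-211-5p: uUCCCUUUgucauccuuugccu
mmu-miR-204-3p: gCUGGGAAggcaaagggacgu

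The seed GGCAGUG is held by 4 mature mouse miRNAs in that RefSeq table, and all 4 are listed above. The 3p arms of miR-34b and miR-34c share another seed, AUCACUA, which no further entry holds. The miR-204-5p and miR-211-5p seed, UCCCUUU, is also found in miR-7670-3p, which was listed at 0 in all 6 libraries. Aligned without gaps and counted from the 5′ end, miR-204-5p and miR-211-5p are the same at 21 of 22 bases and differ by A17U. miR-449a-5p and miR-449c-5p are the same at 18 of 21 compared bases and differ by U1A, U9C and U14C. miR-34a-5p and miR-449a-5p have 15 of 22 bases in common, and the 3p arms of miR-34b and miR-34c have 17 of 22.

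The hairpins lie at 5 places in the genome (GRCm38.p6 positions from RefSeq, host genes from GENCODE M21; the submitters' notes name mm9, and the deposited values carry no coordinates). Mir204 lies at chr19:22750605-22750672 on the plus strand, in an intron of Trpm3, and Mir211 at chr7:64205806-64205911 on the plus strand, in an intron of the related ion channel gene Trpm1. Mir34a lies at chr4:150068454-150068555 on the plus strand and within no other annotated gene. Mir34b (chr9:51103562-51103645) and Mir34c (chr9:51103034-51103110) are 451 bases apart on the minus strand, opposite an intron of Btg4. Mir449c (chr13:113035983-113036091) and Mir449a (chr13:113037534-113037624) are 1442 bases apart on the plus strand, in an intron of Cdc20b, a gene of multiciliated cells. The Mir34c hairpin is printed because it holds miR-34c-3p and the letters of the family seed, in capitals, and because the most abundant cilia-linked member of these libraries comes from it.
Mir34c hairpin: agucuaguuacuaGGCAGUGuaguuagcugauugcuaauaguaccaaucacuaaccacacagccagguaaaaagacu

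The libraries held 4996073 to 9391887 miRNA reads in SE-BDEV and 4400167 to 8147118 in CON-BDEV. Within a tolerance of 1e-05 the RPM values were whole multiples of a step taken as 1 read, and no value below 2 reads is listed, so a 0 is not proof of absence. Counts of 3 reads corresponded to 0.319 to 0.600 RPM in SE-BDEV and to 0.368 to 0.682 RPM in CON-BDEV, a limit that covers counting error only. Both libraries numbered 3 stood apart in miR-24-3p, which was at 3128 RPM in SE-BDEV 3 and 3544 RPM in CON-BDEV 3 and listed at 0 in the other 4. Values without these libraries are given where they move a result. The labelled tissue could be checked only through miRNAs. The 4 neuronal markers examined, miR-124-3p, miR-9-5p, miR-128-3p and miR-138-5p, together made up 19322 to 37113 RPM in SE-BDEV and 23125 to 28314 RPM in CON-BDEV. Of the 3 blood markers examined, miR-451a and miR-144-3p, of red blood cells, had a value of 0 in every library. The remaining blood marker, the merged miR-486a-5p/486b-5p, was at 102 to 111 RPM in SE-BDEV and 83.6 to 199 RPM in CON-BDEV.

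Of the 10 members, 9 were above 0 in at least 1 library, and together they made up 0.153% ± 0.0154 of the reads in SE-BDEV and 0.125% ± 0.0328 in CON-BDEV (SD, n = 3 each). miR-449c-5p was listed at 0 in all 6 libraries. Over the 6 libraries miR-34a-5p averaged 549 ± 120 RPM (rank 59 of the 803 miRNAs above 0) and miR-204-5p 528 ± 176 RPM (rank 60). These levels did not differ beyond their spread, with miR-34a-5p above miR-204-5p in 3 of the 6 libraries. miR-204-3p followed at 205 ± 106 RPM, miR-34c-5p at 87.9 ± 39.1 RPM and miR-449a-5p at 11.7 ± 5.62 RPM (SD, n = 6), and each of these 3 was below its higher neighbour in 6 of 6 libraries. The remaining members were scarce: miR-34b-3p averaged 3.84 RPM, miR-34c-3p 2.30 RPM, miR-34b-5p 2.01 RPM and miR-211-5p 0.396 RPM, and the ranges of neighbours in this order overlapped. Mature miRNAs are close to each other in length (21 to 23 bases here), so RPM was not scaled by length.

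**Figure D1:**
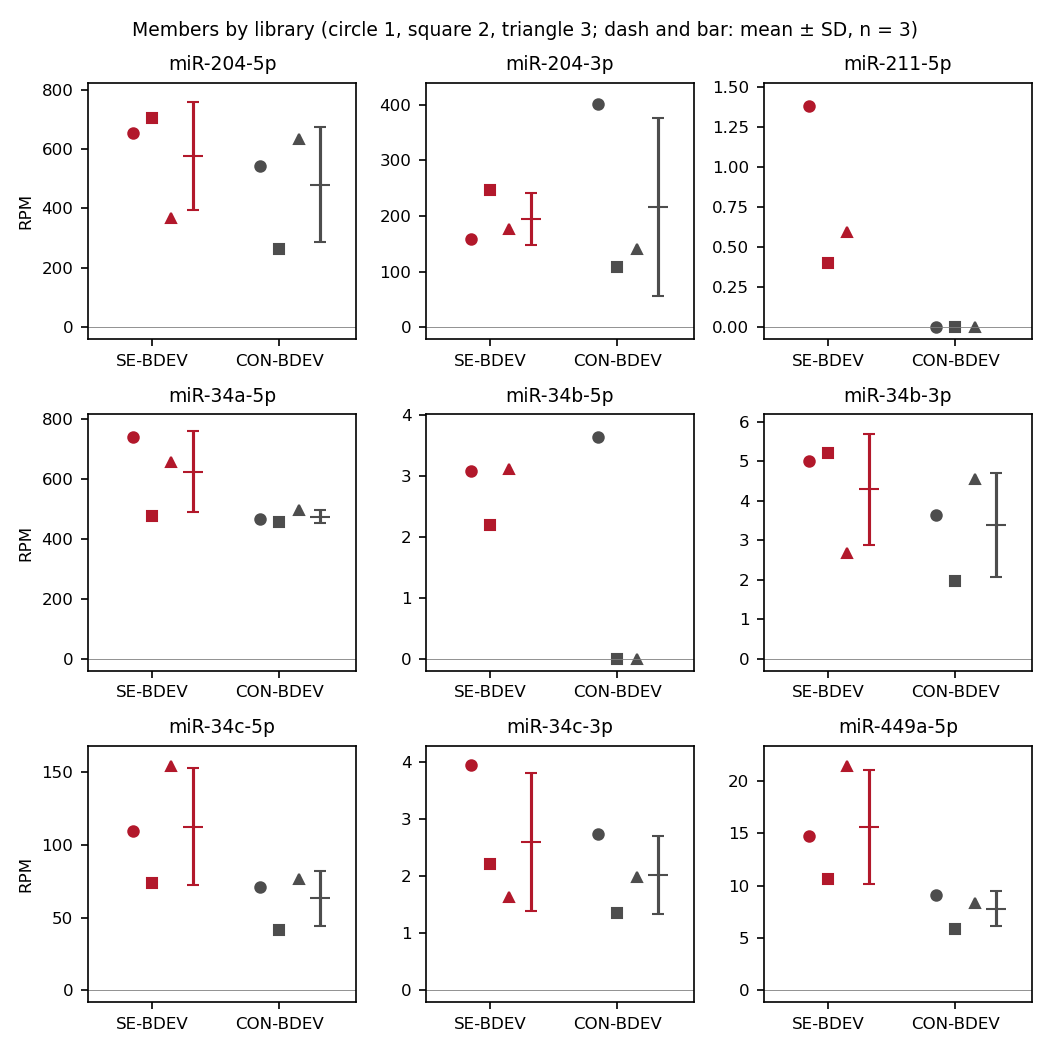
RPM of the 9 members above 0 (y axes, linear, each with its own scale) in the 3 SE-BDEV libraries (red, left) and the 3 CON-BDEV libraries (grey, right); circles, squares and triangles are libraries 1, 2 and 3, and dashes with bars are the mean ± SD, left out where a library is listed at 0. The groups overlap except for miR-449a-5p, at 10.6 to 21.5 RPM in SE-BDEV and 5.89 to 9.09 RPM in CON-BDEV, and for the few reads of miR-211-5p.

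The design compares SE-BDEV with CON-BDEV. Of the members linked to motile cilia, the 2 that were tested, miR-34c-5p and miR-449a-5p, had higher averages in SE-BDEV. They were at 113 ± 40.4 against 63.2 ± 19.0 RPM and at 15.6 ± 5.48 against 7.78 ± 1.68 RPM (SD, n = 3 each). Neither difference passed the threshold of an adjusted p under 0.05. The differences of miR-34a-5p, miR-204-5p and miR-204-3p did not pass it either, and the groups overlapped for each of these. For the scarce miR-34b-5p, miR-34b-3p and miR-34c-3p, which were not tested, the groups overlapped too. The test was limma on log2(RPM + 1) over the 308 miRNAs whose mean reached 10 RPM, 5 of them members. It called 0 of these 5 members, against 3 of all 308 (0.974%), and 1 member had an unadjusted p under 0.05, against 32 of the 308. The authors' deposited table gave 0 of the 8 members with an adjusted p there a value under 0.05, against 7 of 625 miRNAs (1.12%), and 2 members an unadjusted p under 0.05, against 52 of its 803 miRNAs. With the replicate number as a block limma called 10 of 308 miRNAs (3.25%), and again 0 of the 5 members. Groups did not overlap, with SE-BDEV higher, for 1 of the 5 tested members and for 33 of the 308 miRNAs (10.7%). That member, miR-449a-5p, averaged under 10 RPM in CON-BDEV and passed the filter through its SE-BDEV values. Its lack of overlap was thus favoured by the filter.

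miR-34c-5p, the most abundant of the cilia-linked members, was at 109, 73.9 and 155 RPM in SE-BDEV 1, 2 and 3, against 71.4, 41.5 and 76.8 RPM in CON-BDEV 1, 2 and 3. The highest values were those of SE-BDEV 3 and 1, SE-BDEV 2 lay between CON-BDEV 1 and 3, and CON-BDEV 2 was lowest. The log2 difference was 0.81 ± 0.36 (SE), with a 95% interval of 0.026 to 1.59, a limma p of 0.0438 and a limma adjusted p of 0.438. The authors' deposited table gave it a log2 fold change of 0.77 with an adjusted p of 0.369. Without CON-BDEV 2 the log2 difference was 0.54.

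miR-449a-5p, which is made from the Cdc20b intron and shares the miR-34 seed, was at 14.8, 10.6 and 21.5 RPM in SE-BDEV 1, 2 and 3, against 9.09, 5.89 and 8.36 RPM in CON-BDEV 1, 2 and 3. All 3 SE-BDEV values were above all 3 CON-BDEV values. These values rest on 139, 53 and 145 reads in SE-BDEV and on 40, 48 and 55 reads in CON-BDEV. The log2 difference was 0.89 ± 0.43 (SE), with a 95% interval of -0.032 to 1.81 and a limma adjusted p of 0.438, the 15th highest of the 308 differences. Its average in CON-BDEV was below 10 RPM, so it entered the test through its SE-BDEV values, and without SE-BDEV 3 it was not tested. In the authors' deposited table its log2 fold change was 0.94 with an adjusted p of 0.528.

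miR-34c-5p and miR-449a-5p come from different chromosomes and had nearly the same profile over the libraries. Their ratio, miR-34c-5p over miR-449a-5p, was 7.40, 6.96 and 7.19 in SE-BDEV 1, 2 and 3, against 7.85, 7.04 and 9.18 in CON-BDEV 1, 2 and 3. The ratio thus varied less than either miRNA, whose highest libraries were 3.72 times (miR-34c-5p) and 3.65 times (miR-449a-5p) their lowest. Pearson's r of their log2(RPM + 1) values was 0.97 over the 6 libraries, a description in which the libraries' scaling and the group difference are shared. An r this high was not particular to this pair: miR-34a-5p reached 0.97 with miR-212-5p, and miR-204-5p reached 0.96 with miR-3473a. To the pair itself miR-34a-5p was less close, with an r of 0.81 with miR-34c-5p and 0.83 with miR-449a-5p. miR-204-5p had an r of 0.30 with miR-34c-5p and 0.19 with miR-449a-5p.

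miR-34a-5p, the p53-linked member, was at 742, 476 and 658 RPM in SE-BDEV 1, 2 and 3, against 466, 456 and 498 RPM in CON-BDEV 1, 2 and 3. The CON-BDEV values lay close together, while SE-BDEV 1 and 3 were above all of them and SE-BDEV 2 was within their range. The averages were 625 ± 136 RPM in SE-BDEV and 473 ± 21.9 RPM in CON-BDEV (SD, n = 3 each), a log2 difference of 0.38 ± 0.28 (SE, limma adjusted p = 0.660) with a 95% interval of -0.23 to 0.98. Its other arm, miR-34a-3p, was listed at 0 except in CON-BDEV 2, where it was at 0.614 RPM.

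The miR-34b arms and miR-34c-3p had too few reads to pass the filter. miR-34b-5p was at 3.09, 2.20 and 3.11 RPM in SE-BDEV 1, 2 and 3, against 3.64 RPM in CON-BDEV 1 and a listing of 0 in CON-BDEV 2 and 3. The highest value was thus in CON-BDEV, and no SE-BDEV library lay above all CON-BDEV libraries. miR-34b-3p was at 5.00, 5.20 and 2.67 RPM in SE-BDEV 1, 2 and 3, against 3.64, 1.96 and 4.56 RPM in CON-BDEV 1, 2 and 3, and the groups overlapped. miR-34c-3p was at 3.94, 2.20 and 1.63 RPM in SE-BDEV 1, 2 and 3, against 2.73, 1.35 and 1.98 RPM in CON-BDEV 1, 2 and 3, again with overlap. With no filter on low values the limma adjusted p was 0.753 for miR-34b-5p, 0.869 for miR-34b-3p and 0.928 for miR-34c-3p.

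Although miR-34b and miR-34c lie next to each other, their arms were found in different proportions. For miR-34c the 5p arm made up 96.5%, 97.1% and 99.0% of both arms in SE-BDEV 1, 2 and 3, against 96.3%, 96.8% and 97.5% in CON-BDEV 1, 2 and 3. Both arms of miR-34c were above 0 in all libraries, and the log2 ratio of 5p over 3p was 4.97 ± 0.79 in SE-BDEV and 4.39 ± 0.28 in CON-BDEV (SD, n = 3 each; exact permutation p = 0.3, two-sided, smallest possible 0.1). The difference of 0.58 was 0.13 without SE-BDEV 3. For miR-34b the 5p arm was 38.2%, 29.7% and 53.8% of both arms in SE-BDEV 1, 2 and 3, against 50.0% in CON-BDEV 1 and 0 of 16 and 0 of 30 reads in CON-BDEV 2 and 3. The 5p sequences of these hairpins resemble each other, and how reads were divided between them by the authors' counting is not known from the labels.

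**Figure D2:**
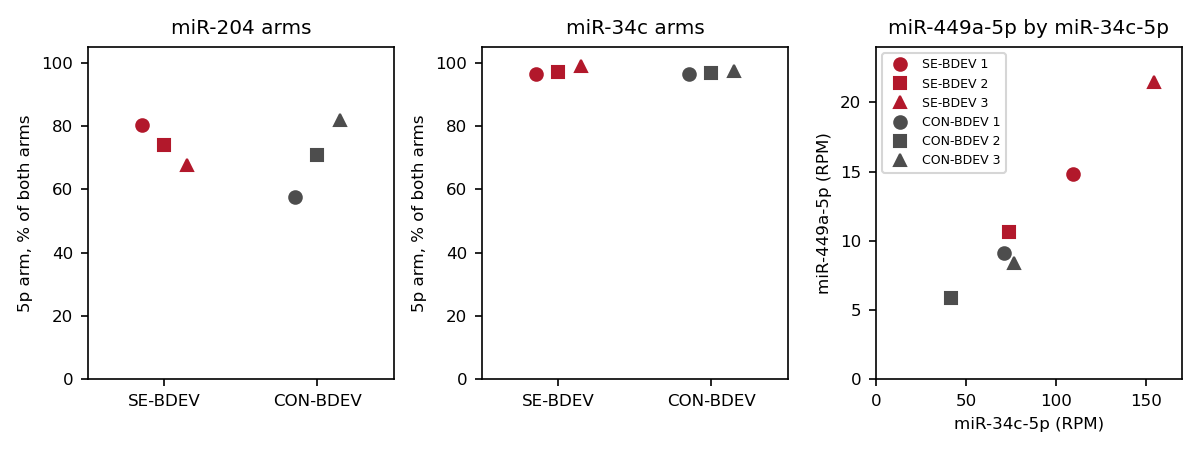
Left and middle, the 5p arm as a percent of both arms (y axis) for miR-204 and miR-34c in SE-BDEV (red, left) and CON-BDEV (grey, right), 1 point per library. miR-204 spans 57.6% to 81.9% and miR-34c 96.3% to 99.0%. Right, RPM of miR-449a-5p (y axis) against RPM of miR-34c-5p (x axis) in the 6 libraries, which lie close to a line with a ratio of 6.96 to 9.18.

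miR-204-5p, the choroid plexus miRNA, was at 655, 706 and 368 RPM in SE-BDEV 1, 2 and 3, against 544, 262 and 633 RPM in CON-BDEV 1, 2 and 3. High and low libraries were found in both groups, with SE-BDEV 3 and CON-BDEV 2 lowest. The averages were 576 ± 182 RPM in SE-BDEV and 480 ± 194 RPM in CON-BDEV (SD, n = 3 each), a log2 difference of 0.30 ± 0.38 (SE, limma adjusted p = 0.782) with a 95% interval of -0.51 to 1.12. Without CON-BDEV 2 the difference turned to -0.083, and without both libraries numbered 3 it was 0.85, neither past the threshold (limma adjusted p of 0.967 and 0.560).

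miR-204-3p was at 159, 247 and 176 RPM in SE-BDEV 1, 2 and 3, against 401, 109 and 140 RPM in CON-BDEV 1, 2 and 3. CON-BDEV 1 held the highest value and the other CON-BDEV libraries the lowest. The averages were 194 ± 46.9 RPM in SE-BDEV and 217 ± 161 RPM in CON-BDEV (SD, n = 3 each). The log2 difference was 0.059 ± 0.44 (SE, limma adjusted p = 0.964) with a 95% interval of -0.89 to 1.01, and it turned negative with median-of-ratios or quantile scaling, with a total that omits the 10 top miRNAs, without both libraries numbered 3 and in the authors' deposited table (-0.17). The 5p arm made up 80.5%, 74.0% and 67.6% of both miR-204 arms in SE-BDEV 1, 2 and 3, against 57.6%, 70.7% and 81.9% in CON-BDEV 1, 2 and 3. On the log2 scale the arm ratio was 1.53 ± 0.49 in SE-BDEV and 1.29 ± 0.86 in CON-BDEV (SD, n = 3 each; exact permutation p = 0.8, two-sided, smallest possible 0.1). The difference in arm ratio was 0.24, and it turned to -0.0065 without SE-BDEV 1 and to -0.18 without CON-BDEV 1. Without both libraries numbered 3 it was 0.92. The arms of miR-204 thus varied in proportion within each group, with a low 5p share in CON-BDEV 1.

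miR-211-5p was at 1.38, 0.400 and 0.593 RPM in SE-BDEV 1, 2 and 3, which is 13, 2 and 4 reads, and had a value of 0 in each CON-BDEV library. No fold is given, since the other group is listed at 0. With no filter on low values limma gave an adjusted p of 0.753, and the authors' deposited table holds no adjusted p for it. miR-211-5p differs from miR-204-5p at 1 base and made up 0.211%, 0.0567% and 0.161% of the reads of both in SE-BDEV 1, 2 and 3. Whether reads of miR-204-5p with a base error were counted as miR-211-5p was not tested. The other arm, miR-211-3p, was listed at 0 in all 6 libraries, as were miR-449a-3p, miR-449b and miR-449c-3p.

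CON-BDEV 2 held the lowest value of the 6 libraries for 5 of the 5 tested members, against 57 of the 308 tested miRNAs. Of these 5 members, 2 are the arms of miR-204. CON-BDEV 2 also held the highest value for only 4 of the 308 tested miRNAs, against 15 to 98 in the other libraries. It held 8147118 reads, the second highest of the 6 libraries. The cause of its low values was not tested. The same library was lowest for 3 of the 4 tested miRNAs from introns of Htr2c, a serotonin receptor gene that is strongly expressed in choroid plexus epithelium as well as in neurons. miR-1298-5p, from that gene, was at 239, 162 and 265 RPM in SE-BDEV 1, 2 and 3, against 221, 73.5 and 177 RPM in CON-BDEV 1, 2 and 3.

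Other miRNAs linked to the same tissues or to p53 were read from 4 lists, and none of their tested members was called. Across all 308 tested miRNAs the median log2 difference was 0.061, and 57.5% were positive; with median-of-ratios scaling these were -0.0078 and 49.0%. The members above the filter had a median of 0.38. Their log2 differences were positive for 5 of 5 as scaled by the authors and for 4 of 5 with median-of-ratios scaling. The smallest, of miR-204-3p (0.059), ran against its RPM averages, 194 in SE-BDEV and 217 in CON-BDEV. It was -0.17 in the authors' deposited table. The members include miR-449a-5p, which passed the filter through its SE-BDEV values, so its sign was favoured by the filter. The Htr2c list, with 4 of 10 members tested, had a median of 0.66, with 3 positive and 1 negative. The negative one, miR-764-3p, averaged 9.18 RPM in SE-BDEV and 11.4 RPM in CON-BDEV. It passed the filter through its CON-BDEV values, so its negative sign was favoured by the filter. Tested or not, 4 of the 10 members of the Htr2c list had a higher average in SE-BDEV, 1 was listed at 0 in every library and the others were lower. The 2 most abundant members of the Htr2c list were miR-1298-5p, with a log2 difference of 0.61 ± 0.41 (SE, limma adjusted p = 0.608), and miR-1264-3p, at 119, 123 and 92.7 RPM in SE-BDEV 1, 2 and 3 against 62.7, 50.3 and 93.9 RPM in CON-BDEV 1, 2 and 3. The log2 difference of miR-1264-3p was 0.72 ± 0.32 (SE, limma adjusted p = 0.438). RefSeq placed the 4 hairpins of this list that it holds, Mir448, Mir764, Mir1298 and Mir1912, inside Htr2c. The placement of Mir1264, the hairpin of miR-1264-3p, was not checked, nor was placement within introns.

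The miR-200 family and the miR-183 cluster, epithelial miRNAs, had 1 of 10 members above the filter, miR-429-3p, at 11.1, 12.2 and 15.9 RPM in SE-BDEV 1, 2 and 3 against 7.50, 9.45 and 12.6 RPM in CON-BDEV 1, 2 and 3 (log2 difference 0.38, limma adjusted p = 0.748). miR-429-3p averaged 9.86 RPM in CON-BDEV and passed the filter through its SE-BDEV values, so its sign was favoured by the filter. Summed, this list stood at 45.4 to 51.6 RPM in SE-BDEV and 24.5 to 37.7 RPM in CON-BDEV. Of the 8 other p53-linked miRNAs 5 were tested, 4 positive and 1 negative, with a median of 0.34. The positive ones include miR-145a-5p (log2 difference 0.023), whose RPM average was lower in SE-BDEV, at 23.6 against 24.3. Tested or not, 4 of the 8 had a higher average in SE-BDEV, 1 was listed at 0 in every library and the others were lower. The most abundant of the p53-linked list was miR-16-5p, a suppressor of cell-cycle genes, at 10893 to 11858 RPM in SE-BDEV and 6252 to 9201 RPM in CON-BDEV (log2 difference 0.51, limma adjusted p = 0.405). Next was the merged miR-103-3p/107-3p, with a log2 difference of -0.082 (limma adjusted p = 0.921). The groups did not overlap for miR-16-5p and for miR-15a-5p, from the same cluster (log2 difference 0.64, limma adjusted p = 0.438), against 10.7% of all tested miRNAs without overlap and higher in SE-BDEV.

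**Figure D3:**
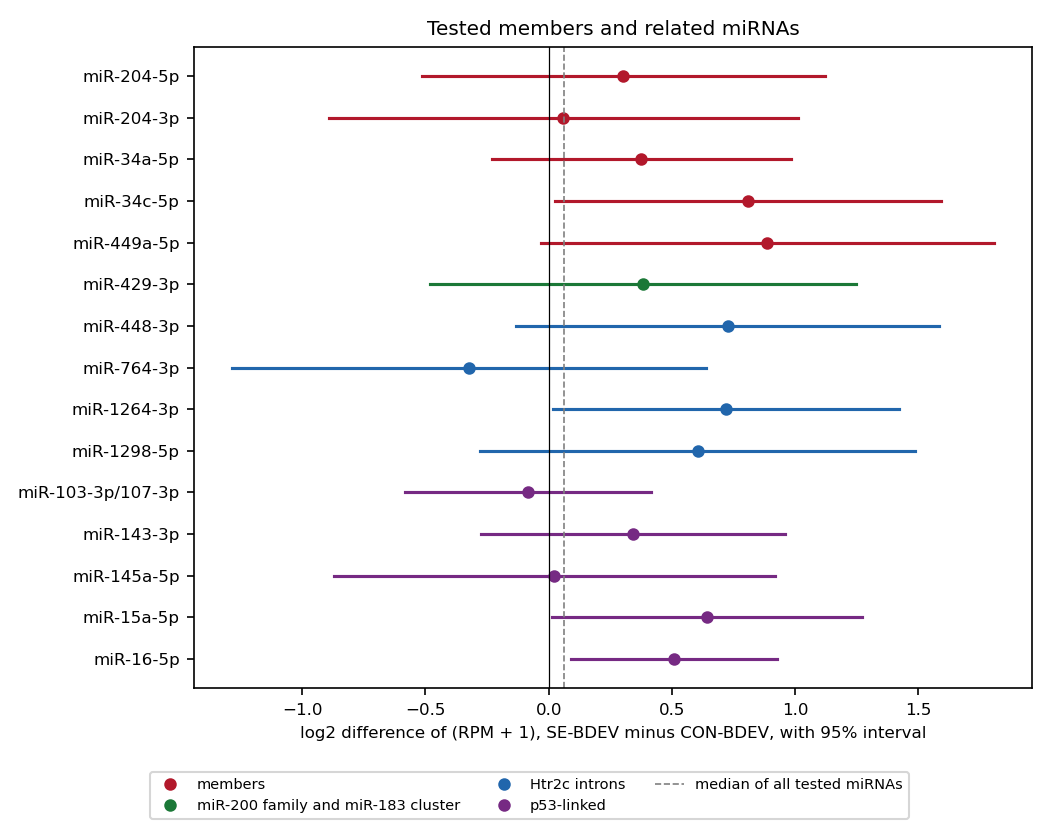
Log2 difference of RPM + 1, SE-BDEV minus CON-BDEV (x axis), with its 95% interval for the 5 tested members (red) and the tested miRNAs of the related lists (other colours); the dashed line is the median of all 308 tested miRNAs, 0.061. miR-34c-5p (0.81) and miR-449a-5p (0.89) lie farthest to the right among the members, and no miRNA shown passed the adjusted threshold.

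Among markers of other cells only the microglial and inflammatory list held calls. The 5 microglial and inflammatory miRNAs examined all had higher averages in SE-BDEV and summed to 309 to 482 RPM there, against 75.1 to 97.6 RPM in CON-BDEV. Of the 4 tested, 2 were called, against 3 of all 308 miRNAs (0.974%). They were miR-155-5p (log2 difference 2.65, limma adjusted p = 0.000284) and miR-142a-5p (1.85, limma adjusted p = 0.00761). Another of the 4, miR-142a-3p, averaged 5.62 RPM in CON-BDEV and passed the filter through its SE-BDEV values. None of the 5 was at 0 in all libraries. The 2 oligodendrocyte markers summed to 198 to 296 RPM in SE-BDEV and 137 to 170 RPM in CON-BDEV, without overlap, and neither was called. Singly, 1 of the 2 did not overlap, miR-338-3p, against 10.7% of all tested miRNAs without overlap and higher in SE-BDEV. miR-219a-2-3p overlapped, at 20.7 to 47.3 RPM in SE-BDEV and 26.0 to 35.7 RPM in CON-BDEV. The endothelial miR-126a arms summed to 4116 to 6342 RPM in SE-BDEV and 2828 to 4276 RPM in CON-BDEV, with overlap and no call. For the neuronal markers, whose sums are given above, the median log2 difference was 0.073 with no call. The part of a shift in the mix of vesicles in the values of miR-34c-5p and miR-449a-5p was not tested.

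The miRNAs whose profile over the 6 libraries was most like that of the leading member of each family were named by Pearson's r of log2(RPM + 1), as a description. For miR-204-5p they were miR-3473a (r = 0.96), miR-1195 (0.90) and miR-10a-5p (0.88), averaging at most 18.0 RPM, with miR-1195 listed at 0 in SE-BDEV 3 and CON-BDEV 2. For miR-34a-5p they were miR-212-5p (r = 0.97), miR-337-3p (0.96) and the merged miR-378a-3p/378b/378c (0.95). All of these values share the libraries' scaling. miR-212-5p and miR-337-3p averaged 12.2 and 12.7 RPM, near the filter. miR-212-5p and miR-10a-5p averaged 7.63 and 8.41 RPM in CON-BDEV, so they passed the filter through their SE-BDEV values.

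**Figure D4:**
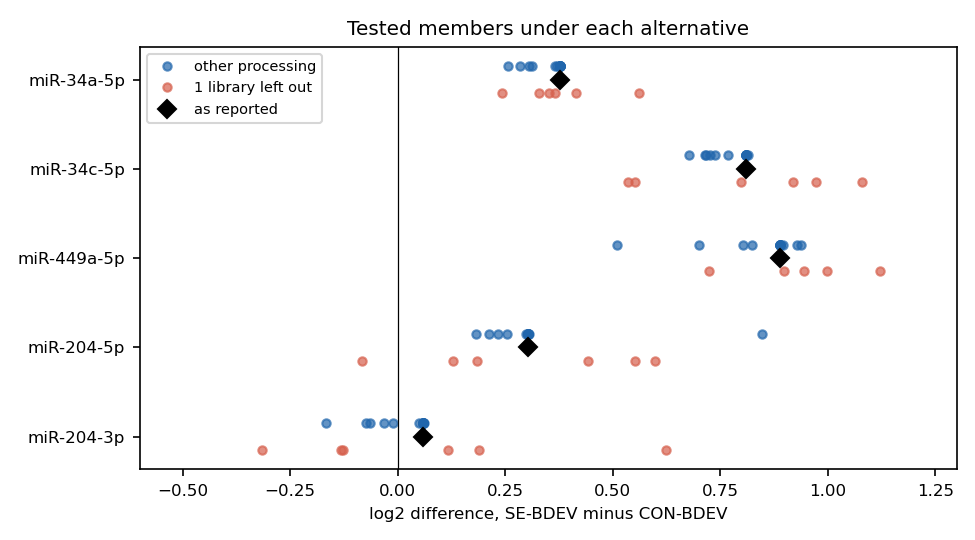
Log2 difference of each tested member, SE-BDEV minus CON-BDEV (x axis), as reported (black diamond), with other processing including the run without both libraries numbered 3 (blue) and with 1 library left out (red). The miR-34 and miR-449 members stay above 0 throughout, at 0.24 to 0.56 for miR-34a-5p, 0.54 to 1.08 for miR-34c-5p and 0.51 to 1.12 for miR-449a-5p, while miR-204-5p and miR-204-3p lie on both sides of 0.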

How the data were processed

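Per the labels' protocols, extraction used the miRNeasy Micro Kit with DNase and library preparation the QIAseq miRNA kit. The authors deposited RPM values for 1926 miRNA rows and a second table of their own comparison. Per the file headers this holds a mean normalized signal, log2 fold changes with standard errors, a test score and p-values. DESeq2 and mm9 are named, without versions, in the submitters' processing notes; the aligner, the counting tool and any collapsing by molecular identifier were not stated there.

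limma 3.58.1 (R 4.3.3, statmod 1.5.0), with trend and robust empirical Bayes, was fitted across all 308 miRNAs whose mean reached 10 RPM, on log2(RPM + 1), a scale that shrinks changes of low miRNAs, and p-values were adjusted by Benjamini-Hochberg. It was tested on simulated data. Arm ratios were compared by an exact permutation test. The members and lists were chosen with earlier results of these data known. All members were described; from each list, any called miRNA or else the 2 most abundant tested ones, and for the leading tested member of each family the 3 most similar miRNAs. miR-15a-5p and the miRNAs under other observations were named after their values were seen. The planned edgeR fits were not run, because no single reads are listed and the values were not taken as counts. Figures used matplotlib 3.10.9.

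Replicate numbers are shared between groups. Deviations from the group means correlated at 0.22, 0.20 and 0.46 for the pairs numbered 1, 2 and 3, above the bound of 0.1, but without miR-24-3p at -0.064, -0.061 and -0.081. Differently numbered libraries reached 0.34 (SE-BDEV 1 with CON-BDEV 2), so pairing by number is not established; the count of calls with the replicate block stands beside the unblocked one.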

Additional observations from a re-analysis of the deposited data

How the results depend on the processing

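Instead of 3 called miRNAs there were 1 with a filter at 100 RPM (129 tested), 10 with the replicate block, 10 when miR-24-3p was also dropped (replicate block kept; chosen after seeing the data), 7 in the authors' deposited table, and 2 to 8 with 1 library left out, the 8 without CON-BDEV 2. None of these runs called a tested member; the block changed no member's call (miR-34c-5p limma adjusted p = 0.143). miR-34a-5p, miR-34c-5p and miR-449a-5p kept a positive difference under every alternative that tested them; miR-449a-5p was not tested with the 100 RPM filter or without SE-BDEV 3, and miR-34c-5p not with the 100 RPM filter. For miR-204-3p the log2 difference was -0.012 with median-of-ratios scaling, -0.033 without the 10 most abundant in the total, -0.065 with quantile normalization, -0.074 without both libraries numbered 3 and -0.17 in the authors' deposited table. Leaving out 1 library gave -0.31 to 0.62 for miR-204-3p (negative without SE-BDEV 2, CON-BDEV 2 or CON-BDEV 3), -0.083 to 0.60 for miR-204-5p and -0.18 to 0.68 for the log2 arm ratio of miR-204. The cause was not tested. The planned edgeR fits, with and without the block, were not run. Members that failed the 10 RPM filter rest on at most 47 reads a library.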

Other observations

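Among epithelial miRNAs below the filter, 3 were named after their values were seen. miR-182-5p, of the sensory and epithelial miR-183 cluster, was at 7.56, 6.41 and 10.4 RPM in SE-BDEV 1, 2 and 3, against a listing of 0, 3.81 and 4.56 RPM in CON-BDEV 1, 2 and 3, so the groups did not overlap. Among the 308 tested miRNAs 10.7% were without overlap and higher in SE-BDEV, and no such share was computed below the filter. miR-200c-3p was at 13.6, 13.6 and 6.22 RPM in SE-BDEV 1, 2 and 3, against 6.36, 5.40 and 4.86 RPM in CON-BDEV 1, 2 and 3, and the groups overlapped. miR-141-3p, its cluster partner, was at 2.87 and 4.44 RPM in SE-BDEV 1 and 3 and listed at 0 in SE-BDEV 2 and in all CON-BDEV libraries. Not all members of the list were higher in SE-BDEV: miR-200b-3p was at 4.05, 4.40 and 1.04 RPM in SE-BDEV 1, 2 and 3, against 1.82, 4.05 and 5.02 RPM in CON-BDEV 1, 2 and 3, and the authors' deposited table gave log2 fold changes of -0.26 for miR-200b-3p and -0.14 for miR-200a-5p. In the authors' deposited table the adjusted p was 0.815 for miR-182-5p, 0.652 for miR-200c-3p and 0.523 for miR-141-3p.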
